A study of Mus musculus with 12 samples.

Results

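Pdgfra, Pdgfrb, Ddr2, Tcf21, Thy1, Fap, Fn1, Tnc, Postn and Cthrc1 are widely used to mark cardiac fibroblasts or their activated state. These 10 genes were taken by symbol from the deposited FPKM table (fragments per kilobase of gene and per unit of depth), and their counts were read by the same gene identifier. The selection rule is the list of symbols and uses no measured value, although the list was drawn up with earlier results of these data known. They are 10 of the 32623 genes in the count table, and all 10 passed the filter on low counts that left 16910 genes. RNA from ventricle tissue was sequenced in 12 samples, 3 in each of 4 groups. All mice were male, wild-type C57BL/6J animals of 6 to 8 weeks, per the labels. In Lip-1+MI, the left anterior descending coronary artery was tied permanently after pre-treatment with liproxstatin-1 at 3 mg per kg per day, 24 h before ligation. Fer-1+MI had the same ligation after ferrostatin-1 at 1 mg per kg per day, also 24 h before. MI (myocardial infarction) had the ligation with neither compound, and Sham had a sham operation. Both compounds are inhibitors of ferroptosis, a cell death driven by iron and lipid peroxidation. A vehicle for MI and Sham, the part of the ventricle taken and the time from ligation to collection are not stated in the labels.

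Cardiac fibroblasts maintain the collagen network of the heart. After loss of heart muscle they proliferate, migrate and build a scar, and some become contractile myofibroblasts. Platelet-derived growth factors (PDGF) act on them through a pair of receptor tyrosine kinases, PDGFRα and PDGFRβ. PDGFRα marks fibroblasts in the adult heart, while PDGFRβ is also high on pericytes and smooth muscle. The transcription factor TCF21 belongs to the resident state, and its expression is known to drop as fibroblasts are activated. Fibronectin, tenascin-C, periostin and CTHRC1 are secreted into the matrix of healing tissue.

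Total counts were between 45469259 and 60777497 per sample. The gene identifiers carry the rat prefix of Ensembl although the labels give mouse, and no source used here names the build behind the files' coordinates. The chromosomes also differ from those of mouse RefSeq (GRCm38.p6): Pdgfra is on chromosome 14 here and on 5 in the mouse. Tcf21, Postn, Ddr2 and Tnc differ likewise. The coordinates given with gene identifiers below are thus not mouse coordinates. The species of the RNA was not tested. The tissue label was set against cardiomyocyte genes: Actc1 averaged 5246 FPKM, Tnnt2 2141 FPKM and Myh6 1234 FPKM, while Mb averaged 23.8 FPKM. Mb was thus far below the others named, and these values do not settle the label. Of the markers of other cells, Cd3e and Cd3g (T cells) were listed at 0 in every sample, and Cldn5 (endothelium) did not exceed 0.333 FPKM. Whether these low values reflect the cells present or the counting of these genes was not tested. Over the 12 samples, the endothelial list summed to 188 to 272 CPM (scaled counts, defined below) and the lymphocyte list to 10.7 to 14.9 CPM. Macrophage markers summed to 817 to 1015 CPM, mural markers to 2921 to 4402 CPM and blood cell genes to 12.9 to 24.2 CPM. The labels do not say that the 3 samples of a group are 3 animals, so the p-values reflect sample spread that may be technical. In RNA of whole tissue, fewer cells of a type and less RNA per cell cannot be told apart.

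The levels of the 10 markers spanned more than 2 orders of magnitude on the FPKM scale, which allows genes of different length to be compared. Fn1 (fibronectin) averaged 837 FPKM over the 12 samples and ranked 67 of 23660 genes, and Postn (periostin) followed with 161 FPKM at rank 422. Pdgfra averaged 122 FPKM, Pdgfrb 74.4 FPKM, Tnc (tenascin-C) 57.6 FPKM and Ddr2 41.6 FPKM. Tcf21 averaged 26.6 FPKM and Cthrc1 20.8 FPKM. Thy1 at 3.82 FPKM and Fap at 3.00 FPKM were the lowest, at ranks 9756 and 10479. These also had the fewest counts, 205 to 493 for Thy1 and 325 to 699 for Fap, and the largest SEs of the 10 in the comparison of MI with Sham. For scale, the collagen gene Col1a1 averaged 1883 FPKM, above the mean of Myh6 and below that of Tnnt2. The order was not fixed across groups: Pdgfra was above Pdgfrb in each sample of the 3 ligated groups and below it in Sham.

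**Figure D1:**
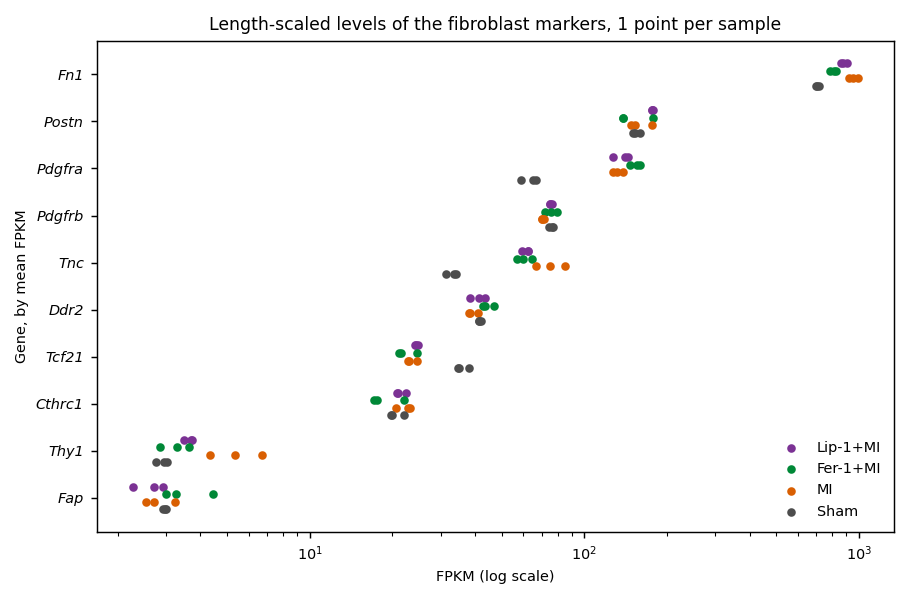
FPKM (log axis) of each marker in every sample, genes ordered by mean, with Lip-1+MI, Fer-1+MI, MI and Sham drawn from top to bottom within a gene. Fn1 lies between 698 and 994 FPKM and Fap between 2.27 and 4.46 FPKM; the Sham points stand apart from the ligated ones for Pdgfra, Tnc, Tcf21 and Fn1.

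The first comparison asked what ligation did to these markers. In MI against Sham, 5 of the 10 were higher (Pdgfra, Tnc, Thy1, Fn1 and Cthrc1), 1 was lower (Tcf21), and 4 did not pass the test (Pdgfrb, Ddr2, Fap and Postn). Over all genes tested, 22.8% were called higher and 20.8% lower. Values below are CPM (counts scaled to equal library size with trimmed-mean, TMM, factors), and calls are edgeR quasi-likelihood tests with Benjamini-Hochberg adjustment over all 16910 genes at 0.05. Log2 fold changes are given ± SE.

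The PDGF receptors parted. Pdgfra (ENSRNOG00000002244, chromosome 14, 35527927 to 35581031) was at 1030, 958 and 1063 CPM in MI, against 408, 464 and 445 CPM in Sham. Every MI sample was far above the highest Sham sample. Its log2 fold change was 1.21 ± 0.06, a 2.32-fold rise (edgeR adjusted p = 8.9e-12). Pdgfrb (ENSRNOG00000018461, chromosome 18, 56364620 to 56406381) was at 479, 466 and 481 CPM in MI, against 468, 462 and 443 CPM in Sham. The groups overlapped, and the log2 fold change of 0.05 ± 0.04 did not pass (edgeR adjusted p = 0.293, 95% interval -0.03 to 0.14). With library size as the only scaling, Pdgfrb instead passed as lower, at -0.11 (edgeR adjusted p = 0.029). The ratio of Pdgfra to Pdgfrb within a sample needs no scaling between samples, and it was chosen after the values were seen. In FPKM it was 1.88, 1.80 and 1.93 in MI, against 0.763, 0.877 and 0.878 in Sham. Ddr2 (ENSRNOG00000002881, chromosome 13, 88317145 to 88436789) encodes a collagen-binding receptor tyrosine kinase of mesenchymal cells. It was at 170, 167 and 182 CPM in MI, against 169, 164 and 162 CPM in Sham. These overlapped, with a log2 fold change of 0.07 ± 0.05 (edgeR adjusted p = 0.303, 95% interval -0.04 to 0.17), which was -0.09 with library size only.

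Tcf21 (ENSRNOG00000016700, chromosome 1, 23906717 to 23909566), the transcription factor of the resident state, was the only one of the 10 to fall. It was at 35.9, 32.6 and 33.2 CPM in MI, against 49.6, 45.7 and 44.6 CPM in Sham, without overlap. It fell with a log2 fold change of -0.46 ± 0.07 (edgeR adjusted p = 5.3e-05).

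The surface markers differed from each other. Thy1 (ENSRNOG00000006604, chromosome 8, 48382121 to 48386935), a glycoprotein anchored in the membrane that is also present on T cells and neurons, was at 6.94, 8.24 and 10.5 CPM in MI, against 4.21, 4.30 and 3.83 CPM in Sham. All MI samples were above all Sham samples, and the MI samples were spread over a wider range. The log2 fold change was 1.06 ± 0.15, or 2.08-fold (edgeR adjusted p = 1.2e-05). Fap (ENSRNOG00000005679, chromosome 3, 48467781 to 48536235), a protease of the cell surface associated with activated fibroblasts, was at 7.49, 8.61 and 6.93 CPM in MI, against 7.32, 7.36 and 7.07 CPM in Sham. The groups overlapped, and its log2 fold change was 0.08 ± 0.14 (edgeR adjusted p = 0.676, 95% interval -0.21 to 0.38). Its sign turned to -0.08 with library size only.

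Among the matrix genes, Tnc (ENSRNOG00000058645, chromosome 5, 79789671 to 79874671) changed most. Tenascin-C is an adhesion-modulating glycoprotein that is sparse in the normal adult heart and appears at sites of injury. It was at 576, 628 and 725 CPM in MI, against 243, 262 and 255 CPM in Sham, a 2.54-fold rise with a log2 fold change of 1.35 ± 0.07 (edgeR adjusted p = 4.9e-11). Fn1 (ENSRNOG00000014288, chromosome 9, 78900103 to 78969078) was at 9251, 9307 and 9872 CPM in MI, against 6268, 6430 and 6202 CPM in Sham. Neither gene's groups overlapped, and the rise of Fn1 was 1.5-fold with a log2 fold change of 0.59 ± 0.04 (edgeR adjusted p = 1.2e-09). Postn (ENSRNOG00000012660, chromosome 2, 143656793 to 143688087), a secreted matricellular protein and a common label of activated cardiac fibroblasts, was at 573, 574 and 676 CPM in MI, against 519, 528 and 541 CPM in Sham. The groups did not overlap, but 1 MI sample stood above the other two, and the log2 fold change of 0.20 ± 0.08 did not pass (edgeR adjusted p = 0.0606, 95% interval 0.03 to 0.37). It passed with DESeq2 (adjusted p = 0.0263). Cthrc1 (ENSRNOG00000004578, chromosome 7, 77966722 to 77977004), which marks matrix-producing fibroblasts of infarct scars in mice, was at 30.1, 32.6 and 32.8 CPM in MI, against 28.6, 25.8 and 25.2 CPM in Sham. The groups did not overlap, and the rise was 1.2-fold with a log2 fold change of 0.26 ± 0.08 (edgeR adjusted p = 0.0169). That call ended with library size only, at 0.10 (edgeR adjusted p = 0.359), and without any 1 of MI replicate 2, MI replicate 3, Sham replicate 2 and Sham replicate 3, at 0.23 to 0.25.

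**Figure D2:**
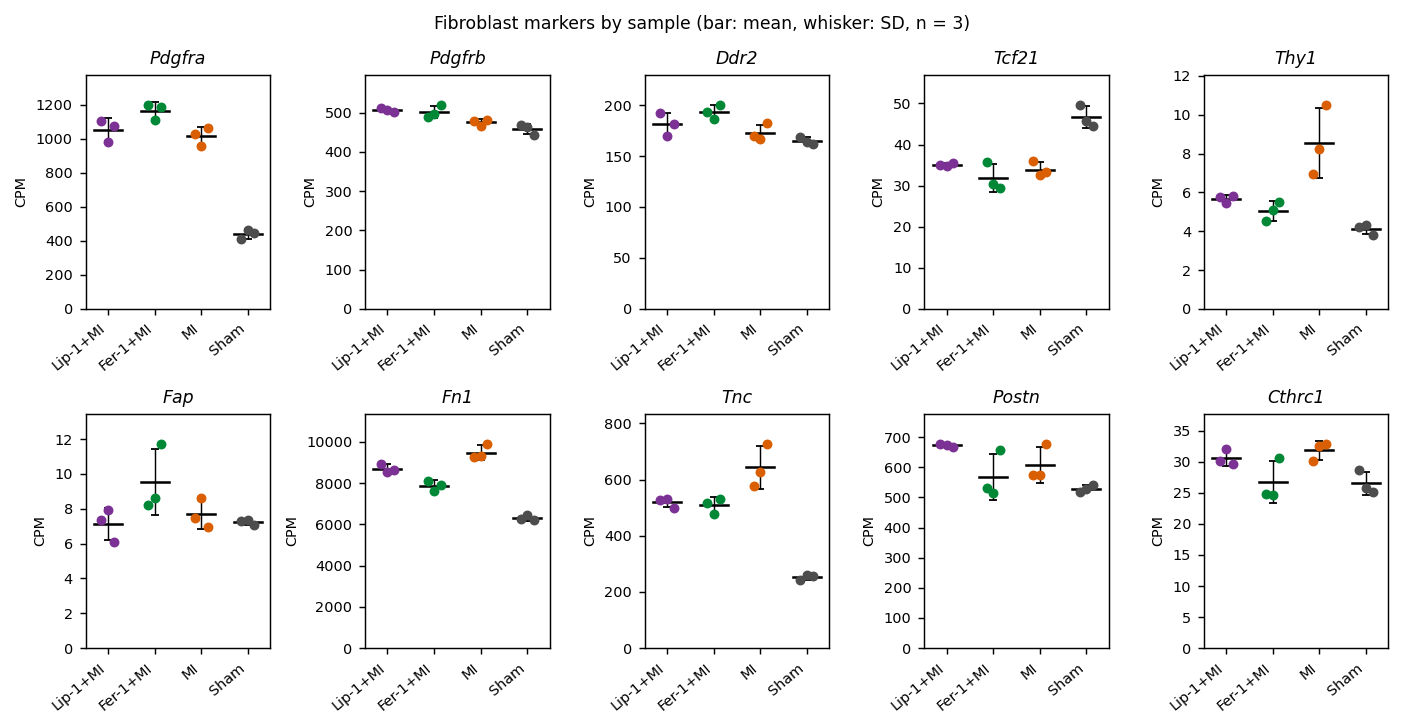
CPM of each marker in every sample (linear axes from 0; points are samples, bars means, whiskers SD, n = 3), with groups from left to right Lip-1+MI, Fer-1+MI, MI and Sham. Pdgfra lies between 958 and 1197 CPM in the ligated groups and between 408 and 464 CPM in Sham; Thy1 and Tnc are highest in MI.

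The scaling bears on small differences from Sham. TMM factors were 0.9592 to 0.9913 in the ligated groups and 1.081 to 1.090 in Sham, and with library size only the median log2 fold change of all genes in MI against Sham was -0.17. Calls over all genes then split into 2415 higher and 5943 lower, against 3860 higher and 3509 lower with TMM. Pdgfra, Tnc, Thy1, Fn1 and Tcf21 kept their direction and their call under both, and also with limma on log2(FPKM + 1).

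**Figure D3:**
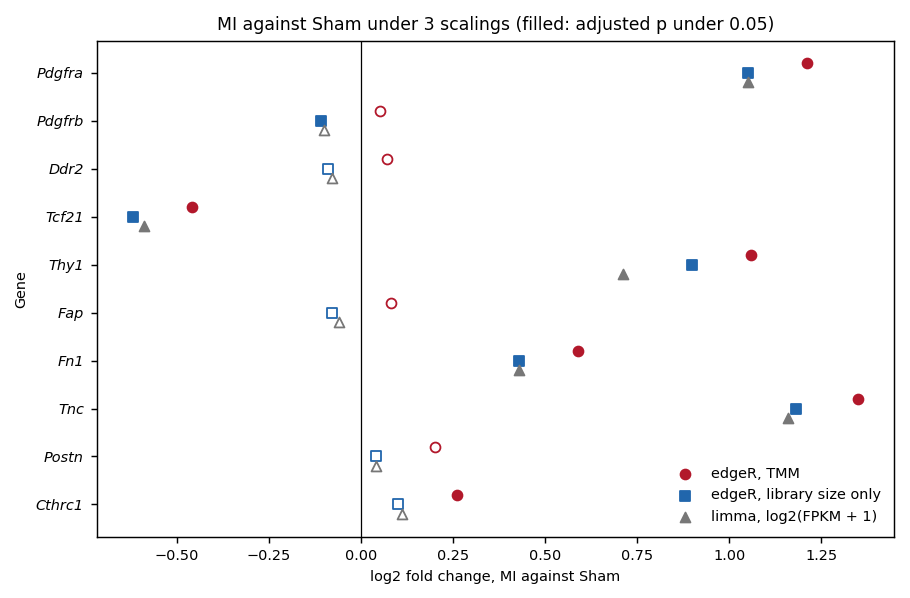
Log2 fold change of each marker in MI against Sham (horizontal axis) by edgeR with TMM, by edgeR with library size only and by limma on log2(FPKM + 1); filled symbols have an adjusted p under 0.05. Pdgfra, Tnc, Thy1 and Fn1 are filled right of 0 and Tcf21 is filled left of 0 in all 3, while Pdgfrb, Ddr2 and Fap lie on both sides of 0.

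Promoter sequences of the mouse from RefSeq (GRCm38.p6) were taken for 5 of the 10 markers by symbol: Pdgfra, Tcf21, Postn, Ddr2 and Tnc. A mouse chromosome was left out of this search, so a marker can be missing for that reason. The windows counted as background below were not cut in that way. Given below are the 250 bases before an annotated start for the receptor and the matrix gene that rose most, and for Postn, which did not pass the test. Exact matches to 5 short motifs, none of which contains another, were sought on either strand, and matches are in capitals. An E-box form that the factor TCF21 is known to bind was written CAGCTG. The motif of the AP-1 factors was written TGACTCA. For the TEAD factors, which act downstream of the Hippo pathway, the letters were CATTCC. The other E-box form that was searched is known from MYC and USF factors and was written CACGTG. The TATA box, an element near many transcription starts, was searched as TATAAA. The Pdgfra window is chr5:75152001-75152250 on the plus strand, the Tnc window is chr4:64047016-64047265 on the minus strand, and the Postn window is chr3:54360857-54361106 on the plus strand.
Pdgfra: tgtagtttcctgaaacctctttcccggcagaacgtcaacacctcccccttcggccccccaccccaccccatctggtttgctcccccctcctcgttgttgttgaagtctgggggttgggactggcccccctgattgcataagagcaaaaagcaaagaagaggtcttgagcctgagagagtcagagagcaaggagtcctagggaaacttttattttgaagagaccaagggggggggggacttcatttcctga
Tnc: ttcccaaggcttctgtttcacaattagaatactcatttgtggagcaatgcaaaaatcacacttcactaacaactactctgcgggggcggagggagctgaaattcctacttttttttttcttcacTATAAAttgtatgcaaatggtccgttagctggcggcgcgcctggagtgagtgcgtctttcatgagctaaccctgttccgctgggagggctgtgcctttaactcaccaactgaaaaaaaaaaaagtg
Postn: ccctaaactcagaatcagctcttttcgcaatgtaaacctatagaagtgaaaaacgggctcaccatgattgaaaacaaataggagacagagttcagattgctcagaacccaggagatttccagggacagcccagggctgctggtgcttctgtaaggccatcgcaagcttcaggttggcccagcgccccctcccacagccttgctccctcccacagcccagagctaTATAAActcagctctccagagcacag
TATAAA was matched 26 bases before this start of Postn and 126 bases before that of Tnc. Both genes have another annotated start. The window of the other Postn start (chr3:54359017-54359266) held none of the 5 motifs, and that of the other Tnc start, which overlaps the one given, holds the same TATAAA 205 bases before it. It was found in 12.4% of all 32851 promoter windows of the same length. The Pdgfra window held none of the 5 motifs. Of all windows, 13.0% held the TCF21 form of the E-box, 4.46% the AP-1 motif, 12.6% the TEAD motif and 6.02% the other E-box form. These are matches of letters and not measured binding sites.

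The ligands of the PDGF receptors were also examined. In MI against Sham, 3 of the 4 were higher, with a list median of 0.73 beside 0.00 for all genes. Pdgfb, which activates both receptors, averaged 22.2 ± 2.3 CPM in MI and 9.12 ± 0.72 CPM in Sham (SD, n = 3 each), a log2 fold change of 1.29 ± 0.09 (edgeR adjusted p = 2.2e-09). Pdgfa, a ligand of PDGFRα, averaged 28.0 ± 0.87 CPM in MI and 17.8 ± 1.0 CPM in Sham, or 0.65 ± 0.09 (edgeR adjusted p = 5.5e-06). Pdgfd, a ligand of PDGFRβ, was also called, at 0.25 ± 0.08 (edgeR adjusted p = 0.0236), but with library size only it was 0.08 and lost the call. It also lost the call without MI replicate 2, at 0.17, and without any 1 of the Sham samples, at 0.23 to 0.25. Pdgfc had 0.80 ± 0.30 and did not pass (edgeR adjusted p = 0.0511), but it passed with DESeq2 (adjusted p = 0.0104), which called all 4 ligands higher. Of 8 proteins that relay the receptor signal, 2 were higher and 0 lower, with a median of -0.01. Scaled by library size alone, this list had 1 higher and 6 lower. The higher ones were the kinase Src at 0.86 ± 0.06 and the adaptor Crk at 0.18 ± 0.06, and Crk lost its call with library size only and without Sham replicate 3. At an unadjusted p under 0.05, and by DESeq2 too, the list had 2 higher and 0 lower.

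Of 8 genes for cell-surface receptors of fibronectin, periostin and tenascin, 6 were higher and 1 lower, with a median log2 fold change of 0.46. The heparan sulfate proteoglycan Sdc4 averaged 748 ± 23 CPM in MI and 186 ± 14 CPM in Sham, or 2.01 ± 0.05 (edgeR adjusted p = 3.8e-15). Itga5, the α subunit of the main fibronectin receptor, averaged 913 ± 55 CPM in MI and 327 ± 11 CPM in Sham, or 1.48 ± 0.08 (edgeR adjusted p = 2.3e-09). Itgav, the integrin αv subunit, was also higher, at 0.55 ± 0.05.

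Of the relatives of the markers, all 5 that could be tested were higher, with a median of 0.59, and 3 of them with library size only. Without MI replicate 2 the count was 2, with Dpp4, Pdgfrl and Ddr1 no longer called. The tenascin Tnn averaged 18.3 ± 2.7 CPM in MI and 4.55 ± 0.79 CPM in Sham, or 2.01 ± 0.14 (edgeR adjusted p = 2.1e-09), the largest change among the relatives. Tgfbi, which shares its fasciclin domains with periostin, rose by 0.89 ± 0.08. Dpp4, the closest relative of Fap, had 0.53 ± 0.15 (edgeR adjusted p = 0.00682), and the receptor-like gene Pdgfrl 0.59 ± 0.17 (edgeR adjusted p = 0.00897). Ddr1, the relative of Ddr2, had 0.18 ± 0.06 (edgeR adjusted p = 0.0155). The calls of Ddr1 and Dpp4 ended with library size only, and that of Ddr1 also without Sham replicate 3 or MI replicate 3. Tnr, a tenascin of nervous tissue, did not exceed 0.0302 FPKM and was not tested, and Tnxb was not analysed here.

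Genes of the resident and of the activated state gave different counts. Of 14 resident fibroblast genes, 7 were higher and 4 lower in MI than in Sham, with a median of 0.20. Fbln2, a fibulin of the matrix, averaged 359 ± 25 CPM in MI and 164 ± 4.1 CPM in Sham, or 1.12 ± 0.06, and the microfibril gene Mfap5 was higher by 1.09 ± 0.11. Mmp2, a gelatinase made by fibroblasts, averaged 1188 ± 46 CPM in MI and 1849 ± 43 CPM in Sham, or -0.64 ± 0.05 (edgeR adjusted p = 3.0e-09). Of 23 genes of activated fibroblasts and myofibroblasts, 18 were higher and 0 lower, with a median of 0.61. By DESeq2 the list had 18 higher and 0 lower, and at an unadjusted p under 0.05 it had 19 and 0. The homeobox gene Meox1, a regulator of fibroblast activation in mice, averaged 26.6 ± 2.0 CPM in MI and 3.88 ± 0.90 CPM in Sham, or 2.77 ± 0.12 (edgeR adjusted p = 4.1e-12). Lox, which cross-links collagen, rose by 1.20 ± 0.04, and Tagln, an actin-binding protein of contractile cells, by 1.52 ± 0.06. Smooth muscle expresses Tagln as well.

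Of 8 other mesenchymal transcription factors, 2 were higher and 3 lower, with a median of 0.01. Prrx1 averaged 74.4 ± 4.4 CPM in MI and 39.0 ± 1.9 CPM in Sham, or 0.93 ± 0.07. Like Tcf21, Osr1 and Tbx20 fell, by 1.18 ± 0.12 and 0.80 ± 0.06 on the log2 scale. TBX20 is also a factor of heart muscle.

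**Figure D4:**
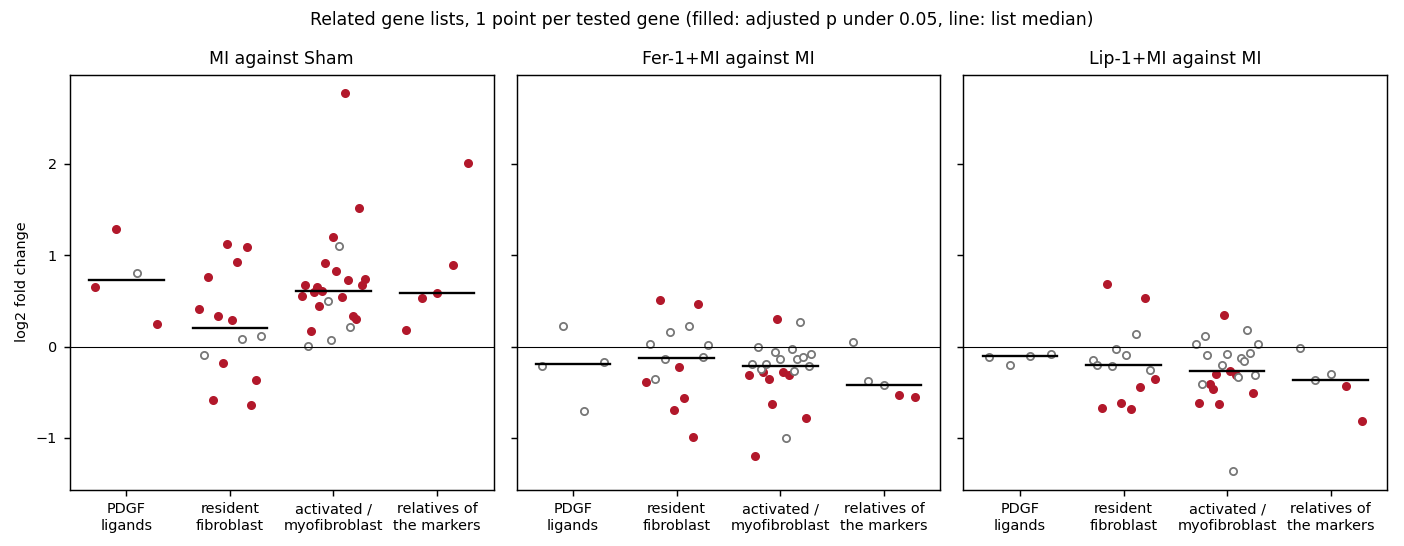
Log2 fold change (vertical axis) of each tested gene of 4 related lists in MI against Sham, Fer-1+MI against MI and Lip-1+MI against MI; filled points have an adjusted p under 0.05 and lines are list medians. In MI against Sham the medians are 0.73 for PDGF ligands, 0.20 for resident genes, 0.61 for activated genes and 0.59 for relatives, and in both compound comparisons all 4 medians are below 0.

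Markers of other cells were counted in MI against Sham as well, beside 22.8% of all genes called higher and 20.8% lower. Of 10 mural and smooth muscle markers, 7 were higher and 1 lower, and their sum was 3746 to 3967 CPM in MI, against 2921 to 3135 CPM in Sham. Of 8 epicardial markers, 6 were higher and 0 lower, with a sum of 256 to 279 CPM in MI, against 194 to 197 CPM in Sham; at an unadjusted p under 0.05 and by DESeq2, 1 was lower, and with library size only 2 were. Macrophage markers had 6 of 9 higher and 1 lower, with sums of 868 to 1015 CPM in MI, against 817 to 889 CPM in Sham, and without any 1 of MI replicates 2 and 3 and Sham replicates 2 and 3, 0 were lower. Cardiomyocyte markers had 3 of 12 higher and 3 lower, with 26884 to 29275 CPM in MI, against 29061 to 30883 CPM in Sham. With library size only, they had 0 higher and 5 lower. Endothelial markers had 1 of 7 higher and 1 lower, and sums of 222 to 244 CPM in MI, against 227 to 234 CPM in Sham. With library size only, 1 was higher and 5 were lower, and without Lip-1+MI replicate 3, 2 were lower. Blood cell genes had 3 of 5 lower, with sums of 12.9 to 17.0 CPM in MI, against 20.6 to 24.2 CPM in Sham. The count was 0 without MI replicate 3 and 1 without Sham replicate 3. Nerve markers had 1 of 5 lower, with 6.76 to 7.91 CPM in MI, against 7.93 to 9.45 CPM in Sham, and that call ended without any 1 of MI replicates 2 and 3 and Sham replicate 3. Of 3 lymphocyte markers tested, none passed by edgeR, by DESeq2 or at an unadjusted p under 0.05, with 10.7 to 14.9 CPM in MI, against 11.0 to 14.5 CPM in Sham. The part of these cells in the fibroblast marker changes was not tested.

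The next comparisons asked what each compound did to ligated hearts. In Fer-1+MI against MI, 3 of the 10 markers were lower (Thy1, Tnc and Fn1) and 0 were higher. Over all genes, 3.07% were called lower and 2.29% higher. In Lip-1+MI against MI, 2 were lower (Thy1 and Tnc) and 0 were higher, and over all genes 3.05% were called lower and 3.05% higher. At an unadjusted p under 0.05, 3 markers were higher and 4 lower with Fer-1, and 1 was higher and 3 were lower with Lip-1. No share of all genes at that unadjusted level is given here, for the markers or for the lists. DESeq2 called 2 markers higher and 3 lower with Fer-1, and 0 higher and 3 lower with Lip-1. Over all genes, DESeq2 called 611 higher and 672 lower with Fer-1, and 709 higher and 622 lower with Lip-1. Both comparisons share the MI samples, so their values are set side by side and not taken as independent.

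Thy1 was at 5.76, 5.47 and 5.81 CPM in Lip-1+MI and at 4.53, 5.08 and 5.53 CPM in Fer-1+MI, against 6.94, 8.24 and 10.5 CPM in MI. All 6 samples with a compound were below the lowest MI sample. The log2 fold change was -0.59 ± 0.14 with Lip-1 (edgeR adjusted p = 0.0178) and -0.76 ± 0.15 with Fer-1 (edgeR adjusted p = 0.00359). The Lip-1 call ended without MI replicate 3, at -0.42 (edgeR adjusted p = 0.13), and also without any 1 of the Lip-1+MI samples, at -0.61 to -0.57.

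Tnc was at 527, 529 and 499 CPM in Lip-1+MI and at 515, 476 and 532 CPM in Fer-1+MI, against 576, 628 and 725 CPM in MI. Here too, no sample with a compound reached the lowest MI sample, and all remained above the highest Sham sample of 262 CPM. The log2 fold change was -0.31 ± 0.07 with Lip-1 (edgeR adjusted p = 0.00784) and -0.34 ± 0.07 with Fer-1 (edgeR adjusted p = 0.00452). Both calls ended with limma on log2(FPKM + 1) without a filter on low values, at -0.29 with Lip-1 and -0.31 with Fer-1.

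Fn1 was at 8928, 8556 and 8623 CPM in Lip-1+MI and at 8108, 7604 and 7922 CPM in Fer-1+MI, against 9251, 9307 and 9872 CPM in MI. The 3 groups did not overlap, with MI highest and Fer-1+MI lowest. The log2 fold change was -0.27 ± 0.04 with Fer-1 (edgeR adjusted p = 4.2e-04). With Lip-1 it was -0.12 and missed the threshold (edgeR adjusted p = 0.0813), although it passed with DESeq2 (adjusted p = 0.0311).

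None of the 3 receptor tyrosine kinases passed with either compound by edgeR. Pdgfrb was higher with Lip-1, and Pdgfra and Ddr2 with Fer-1, only at an unadjusted p under 0.05 in edgeR. Pdgfra was at 1104, 978 and 1075 CPM in Lip-1+MI and at 1197, 1108 and 1187 CPM in Fer-1+MI, against 1030, 958 and 1063 CPM in MI. The Fer-1+MI samples were all above the MI samples, and the Lip-1+MI samples overlapped them. The log2 fold change was 0.05 with Lip-1 (95% interval -0.07 to 0.17) and 0.19 with Fer-1 (edgeR adjusted p = 0.0524, 95% interval 0.08 to 0.31). The Fer-1 difference passed with DESeq2 (adjusted p = 0.0148). Pdgfrb had 0.09 with Lip-1 (edgeR adjusted p = 0.212) and 0.08 with Fer-1 (edgeR adjusted p = 0.311). Ddr2 had 0.16 with Fer-1 (edgeR adjusted p = 0.0753), which passed with DESeq2 (adjusted p = 0.0302).

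Tcf21 was at 35.0, 34.8 and 35.5 CPM in Lip-1+MI and at 35.7, 30.4 and 29.5 CPM in Fer-1+MI, against 35.9, 32.6 and 33.2 CPM in MI. The groups overlapped, with log2 fold changes of 0.05 with Lip-1 and -0.09 with Fer-1, and neither passed. Postn was at 676, 673 and 668 CPM in Lip-1+MI and at 531, 516 and 656 CPM in Fer-1+MI, against 573, 574 and 676 CPM in MI. In Fer-1+MI and in MI alike, replicate 3 was far above the other two samples, whereas the Lip-1+MI samples were nearly equal. Its log2 fold change was 0.15 with Lip-1 (edgeR adjusted p = 0.359) and -0.10 with Fer-1 (edgeR adjusted p = 0.581). Replicate 3 of Fer-1+MI was also the highest of its group for Cthrc1, at 24.8, 24.7 and 30.6 CPM, and for Fap, at 8.24, 8.65 and 11.7 CPM. Without that sample, Cthrc1 passed as lower in Fer-1+MI than in MI, at -0.36 (edgeR adjusted p = 0.0156), beside -0.25 with it (edgeR adjusted p = 0.0998). Fap had -0.11 with Lip-1 and 0.31 with Fer-1 (edgeR adjusted p = 0.237), and Cthrc1 had -0.06 with Lip-1.

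**Figure D5:**
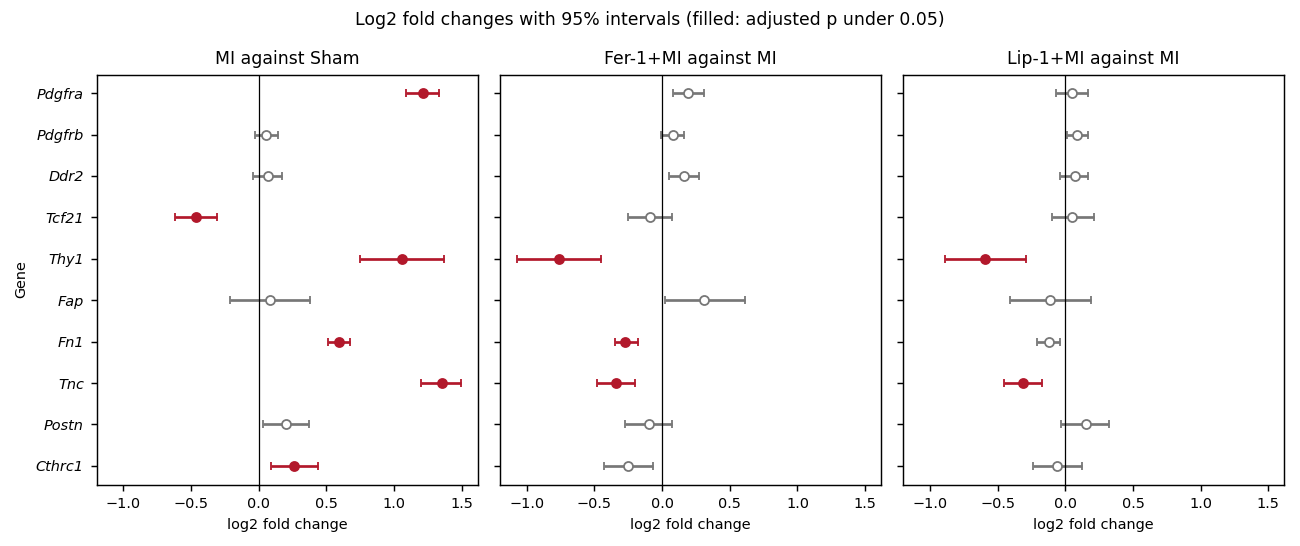
Log2 fold changes (horizontal axis) of the 10 markers with 95% intervals in MI against Sham, Fer-1+MI against MI and Lip-1+MI against MI; filled points have an edgeR adjusted p under 0.05. Thy1 and Tnc are right of 0 in MI against Sham (1.06 and 1.35) and left of 0 with both compounds, while Pdgfra (1.21 in MI against Sham) and Tcf21 (-0.46) are not filled with either compound.

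Related genes were counted in the same comparisons. Of the 23 activated and myofibroblast genes, 8 were lower and 1 higher with Fer-1 (median -0.21), and 8 lower and 1 higher with Lip-1 (median -0.27), beside medians of 0.00 and -0.01 over all genes. Tagln averaged 744 ± 51 CPM in Lip-1+MI and 617 ± 32 CPM in Fer-1+MI, against 1062 ± 50 CPM in MI. Col1a1, the α1 chain of collagen I, averaged 11825 ± 178 CPM in Lip-1+MI, against 15679 ± 671 CPM in MI. The metalloprotease Adam12 had -0.62 ± 0.07 with Lip-1, and Col5a1, a chain of collagen V, had -0.35 ± 0.05 with Fer-1. Fmod, a small proteoglycan that binds collagen, was the higher one with Fer-1, at 0.30 ± 0.04.

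Of the 14 resident genes, 2 were higher and 5 lower with each compound, with medians of -0.13 with Fer-1 and -0.21 with Lip-1. With Fer-1, DESeq2 called 4 higher. With Lip-1, 3 were lower without MI replicate 3 or without Lip-1+MI replicate 1. Mmp2 averaged 1716 ± 63 CPM in Lip-1+MI and 1635 ± 90 CPM in Fer-1+MI, against 1188 ± 46 CPM in MI. The collagen-binding proteoglycan Dcn averaged 1594 ± 71 CPM in Lip-1+MI, against 992 ± 55 CPM in MI, or 0.68 ± 0.06. Fbln2 was lower with both, at -0.62 ± 0.06 with Lip-1 and -0.69 ± 0.06 with Fer-1, and Mfap5 averaged 14.2 ± 1.5 CPM in Fer-1+MI, against 28.2 ± 3.0 CPM in MI.

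Among the relatives, 2 of 5 were lower with each compound: Tgfbi, at -0.43 ± 0.08 with Lip-1 and -0.53 ± 0.08 with Fer-1, and Tnn, at -0.82 ± 0.13 with Lip-1 and -0.55 ± 0.13 with Fer-1. With Fer-1 the count was 1 without any 1 of Fer-1+MI replicates 2 and 3 and MI replicate 3. Dpp4, Pdgfrl and Ddr1 did not pass with either, with values from -0.42 to 0.05. None of the 4 PDGF ligands passed with either compound in edgeR or DESeq2. At an unadjusted p under 0.05, 1 was higher and 2 were lower with Fer-1, and 1 was lower with Lip-1. Pdgfb had 0.22 ± 0.09 with Fer-1 (edgeR adjusted p = 0.172) and -0.20 ± 0.09 with Lip-1 (edgeR adjusted p = 0.22). Pdgfa had -0.21 with Fer-1 and -0.11 with Lip-1, Pdgfc -0.71 with Fer-1 and -0.10 with Lip-1, and Pdgfd -0.17 with Fer-1 and -0.08 with Lip-1. The receptors of the matrix proteins and the mesenchymal transcription factors had 0 calls in edgeR with either compound. DESeq2 called 1 such receptor lower with Fer-1 and none otherwise. At an unadjusted p under 0.05, the receptors had 0 higher and 1 lower with Fer-1 and 1 and 1 with Lip-1, and the factors had 1 and 1 with Fer-1 and 0 and 3 with Lip-1. The proteins that relay PDGF signals had 0 calls in edgeR and in DESeq2 with either compound, and at an unadjusted p under 0.05 only 1 was higher, with Fer-1.

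Other cells' markers were counted with the compounds too. Over all genes, 3.07% were lower and 2.29% higher with Fer-1, and 3.05% were lower and 3.05% higher with Lip-1. The list counts were small, and many changed when 1 sample was left out. Macrophage markers had 2 of 9 lower with each, with sums of 901 to 929 CPM in Lip-1+MI and 885 to 906 CPM in Fer-1+MI, against 868 to 1015 CPM in MI. Without MI replicate 3, 4 were lower with Lip-1. With Fer-1 the count was 0 without any 1 of Fer-1+MI replicates 2 and 3 and MI replicate 1, and 1 without Fer-1+MI replicate 1, without any 1 of the Lip-1+MI or Sham samples, and with library size only. Epicardial markers had 3 of 8 lower with Lip-1 and 2 with Fer-1, with sums of 227 to 239 CPM in Lip-1+MI and 242 to 250 CPM in Fer-1+MI, against 256 to 279 CPM in MI. With Lip-1, 1 was lower without any 1 of Lip-1+MI replicate 1 and MI replicates 1 and 3, and with Fer-1, 1 was lower without any 1 of Fer-1+MI replicates 2 and 3 and MI replicates 1 and 3. Mural markers had 1 of 10 higher and 1 lower with each, and summed to 3970 to 4402 CPM in Lip-1+MI and 3223 to 3612 CPM in Fer-1+MI, against 3746 to 3967 CPM in MI. With Lip-1 the higher call ended without any 1 of Lip-1+MI replicates 2 and 3 and MI replicate 1. With Fer-1, 2 were higher without MI replicate 3, 0 were lower without Fer-1+MI replicate 2 or MI replicate 3, 3 were lower without MI replicate 1, and 2 were lower without Lip-1+MI replicate 2, MI replicate 2 or any 1 Sham sample. Endothelial markers had 1 of 7 lower with Lip-1 and 1 higher with Fer-1, with sums of 188 to 221 CPM in Lip-1+MI and 257 to 272 CPM in Fer-1+MI, against 222 to 244 CPM in MI. Without Lip-1+MI replicate 3, 2 were lower with Lip-1 and 2 higher with Fer-1, and without Lip-1+MI replicate 1, 2 were higher with Fer-1. Cardiomyocyte markers had 2 of 12 lower with Lip-1, with sums of 26927 to 30472 CPM in Lip-1+MI and 26127 to 30075 CPM in Fer-1+MI, against 26884 to 29275 CPM in MI. With Lip-1 the count was 0 without any 1 of Lip-1+MI replicate 3 and MI replicates 1 and 2, and 1 without Lip-1+MI replicate 1. With Fer-1 it was 0 in both directions by edgeR, 1 higher by DESeq2, and 2 higher and 1 lower at an unadjusted p under 0.05. Without MI replicate 2 it was 2 higher, and without Fer-1+MI replicate 1 it was 1 higher. The part of these cells in the marker changes was not tested.

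Against Sham, some markers still differed in the groups with a compound and others did not. In Lip-1+MI, 7 markers were higher and 1 lower, beside 20.8% and 18% of all genes. In Fer-1+MI, 6 were higher and 1 lower, beside 19.6% and 16.7% of all genes. Pdgfra had a log2 fold change of 1.26 with Lip-1 and 1.41 with Fer-1, and Tnc had 1.03 with Lip-1 and 1.00 with Fer-1. Fn1 had 0.47 with Lip-1 and 0.32 with Fer-1, and Tcf21 had -0.41 with Lip-1 and -0.55 with Fer-1. These 4 passed in both. These comparisons share the Sham samples with each other and with MI against Sham. The other calls were smaller. Pdgfrb (0.14 with Lip-1 and 0.13 with Fer-1) and Ddr2 (0.13 with Lip-1 and 0.23 with Fer-1) passed with TMM in both, and neither passed with library size only, where Pdgfrb was -0.03 with Lip-1 and -0.01 with Fer-1. Postn (0.34) and Thy1 (0.47) passed with Lip-1, and Fap (0.40) passed with Fer-1. None of these 3 calls held with library size only, and Fap also lost its call without Fer-1+MI replicate 3, at 0.22 (edgeR adjusted p = 0.24). With Fer-1, Thy1 (0.30, edgeR adjusted p = 0.132), Cthrc1 (0.01, edgeR adjusted p = 0.929) and Postn (0.10, edgeR adjusted p = 0.374) did not pass. With Lip-1, Cthrc1 (0.21, edgeR adjusted p = 0.0624) and Fap (-0.02, edgeR adjusted p = 0.92) did not pass.

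The activated list had 16 of 23 genes higher and 0 lower in Lip-1+MI than in Sham, and 18 higher and 1 lower in Fer-1+MI. By DESeq2 the Lip-1 count was 17 higher and 0 lower, and at an unadjusted p under 0.05 it was 16 and 0. Scaled by library size alone, Lip-1+MI had 11 higher and 2 lower, and Fer-1+MI had 12 higher and 1 lower. Over all genes, that scaling gave 1994 higher and 5905 lower in Lip-1+MI, and 1980 higher and 5324 lower in Fer-1+MI. Meox1 averaged 21.2 ± 0.62 CPM in Lip-1+MI and 26.0 ± 0.98 CPM in Fer-1+MI, against 3.88 ± 0.90 CPM in Sham. Sdc4 averaged 798 ± 20 CPM in Lip-1+MI and 803 ± 19 CPM in Fer-1+MI, against 186 ± 14 CPM in Sham.

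The 2 compounds were given at different doses, and their groups were compared directly with that limit. In Lip-1+MI against Fer-1+MI, edgeR called 0 of the 10 markers in either direction, beside 1.74% of all genes higher and 1.41% lower. At an unadjusted p under 0.05, 3 were higher (Postn, Cthrc1 and Fn1) and 2 lower (Pdgfra and Fap). DESeq2 called 2 higher (Postn and Fn1) and 0 lower, beside 444 higher and 341 lower over all genes. Fn1 had a log2 fold change of 0.14 (95% interval 0.06 to 0.23, edgeR adjusted p = 0.059). Postn had 0.24 (95% interval 0.07 to 0.42, edgeR adjusted p = 0.148), and 0.36 without Fer-1+MI replicate 3 (edgeR adjusted p = 0.00378). Pdgfra had -0.15 (95% interval -0.26 to -0.03) and Fap -0.42 (95% interval -0.72 to -0.13). For Tnc the interval was -0.11 to 0.17, and for Thy1 -0.14 to 0.48. Pdgfb was lower in Lip-1+MI, at 19.4 ± 1.1 CPM, than in Fer-1+MI, at 25.9 ± 0.69 CPM (edgeR adjusted p = 0.0105), a call that ended without Lip-1+MI replicate 2 or 3, at -0.40 and -0.39. Of the 23 activated genes, 2 were higher and 2 lower, with a median of 0.01. Acta2, smooth muscle actin, was higher, at 2122 ± 167 CPM in Lip-1+MI, against 1683 ± 39 CPM in Fer-1+MI (edgeR adjusted p = 0.00132), and Tagln was higher by 0.27 ± 0.06 (edgeR adjusted p = 0.0142). Adam12 was lower, at 48.2 ± 1.4 CPM in Lip-1+MI, against 65.1 ± 2.8 CPM in Fer-1+MI (edgeR adjusted p = 0.00121), and Col3a1, the chain of collagen III, had -0.29 ± 0.06 (edgeR adjusted p = 0.0171). The calls of Acta2 and Adam12 held without any 1 sample. The count was 1 higher without any 1 of Lip-1+MI replicates 1 and 2 and Fer-1+MI replicate 2, and 1 lower without any 1 of Lip-1+MI replicates 1 and 2 and Fer-1+MI replicate 3.

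Markers of other cells were also counted between the compounds, beside 1.74% of all genes higher and 1.41% lower. Endothelial markers had 0 of 7 higher and 3 lower, with sums of 188 to 221 CPM in Lip-1+MI, against 257 to 272 CPM in Fer-1+MI, and 3 to 4 were lower when 1 sample was left out. Mural markers had 2 of 10 higher and 3 lower, with sums of 3970 to 4402 CPM in Lip-1+MI, against 3223 to 3612 CPM in Fer-1+MI. Leaving out 1 sample gave 1 to 2 higher and 0 to 3 lower, with 0 lower without Lip-1+MI replicate 2 or Fer-1+MI replicate 2. Cardiomyocyte markers had 0 of 12 higher and 2 lower, with 0 lower without Lip-1+MI replicate 3 or Fer-1+MI replicate 2 and 1 lower without Lip-1+MI replicate 1. Macrophage, epicardial, lymphocyte, nerve and blood cell markers had 0 calls in edgeR. DESeq2 called 1 macrophage marker higher and 1 epicardial marker lower. At an unadjusted p under 0.05, macrophage markers had 1 higher and 1 lower, epicardial and lymphocyte markers 1 lower each, and nerve and blood cell markers 0. The part of these cells in the differences between the compounds was not tested.

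The profiles of other genes over the 12 samples were set beside those of Pdgfra and Cthrc1. Likeness was the root mean square difference of log2 CPM values, each centred on the gene's own mean, among 9523 genes with a mean of at least 10 CPM. For Pdgfra, the nearest were Arrdc3 (0.070), Zfp36 (0.075) and Tnip1 (0.075). For Cthrc1, they were Asns (0.075), Golt1b (0.076) and Sdc2 (0.078). Pdgfra ranged from 408 to 1197 CPM but Cthrc1 only from 24.7 to 32.8 CPM, so a small difference is easier to reach for Cthrc1. The likeness is a description over samples that share their groups.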

How the data were processed

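Poly(A) RNA of the 12 samples was sequenced as stranded paired reads, per the labels' protocols. The authors deposited whole-number counts per gene, not normalised, and FPKM values per gene, which they scaled for length and depth. The submitters' processing notes name HISAT2 2.2.1, StringTie 2.1.6, cutadapt 1.9 and FastQC, besides edgeR and DESeq2, with no roles. No source used here states if counting was by strand. In the files' coordinates, Pdgfra and Fn1 overlap other gene models, which had at most 3 and 18 counts in any sample.

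Low genes were removed by filterByExpr at a minimum count of 10 and a minimum total of 15, leaving 16910 of 32623. Counts were scaled by TMM and tested in edgeR 4.0.16 under R 4.3.3 with robust quasi-likelihood tests. A single fit held all 12 samples with a term for group only, 8 residual degrees of freedom and a common biological coefficient of variation of 9.99%. All 6 contrasts were tested, with Benjamini-Hochberg adjustment over genes at 0.05. CPM used TMM-scaled library sizes. DESeq2 1.42.0 on the deposited counts and limma 3.58.1 on log2(FPKM + 1) and log2(FPKM + 0.1) were alternatives, beside other scalings, no filter, 2 groups only, a replicate block and leaving out each sample.

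The markers, the 15 related gene lists and the alternatives for the markers were chosen with earlier results of these data known, and the lists were put through those alternatives after seeing the data. Named are all markers, up to 3 called genes per list and comparison with the smallest p, the PDGF ligands and the relatives of the markers. List genes absent by symbol (Col1a2, Tnxb, Pecam1, Cd3d and Ms4a1) were not analysed here. Promoters are from RefSeq mouse GRCm38.p6.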

Additional observations from a re-analysis of the deposited data

How the results depend on the processing

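Across all alternatives, the log2 fold changes of the 10 markers kept direction and call in 1146 comparisons with the values given, 27 gained a call, 43 lost it and 44 changed sign. For the other named genes these numbers were 3789, 13, 266 and 27. The alternatives include leaving out samples of neither compared group, and several scalings that are much alike. These tallies are therefore not of independent checks. No sign change involved Pdgfra, Tcf21, Thy1 or Fn1.

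With library size only, 2 markers were lower in MI against Sham, 1 was higher in Fer-1+MI against MI, and 3 were higher against Sham with either compound. All genes then split into 1994 higher and 5905 lower in Lip-1+MI against Sham, and 1980 and 5324 in Fer-1+MI against Sham. Limma on FPKM, with either pseudocount or no filter, also gave 3 higher against Sham with either compound, and without a filter 0 lower in Lip-1+MI against MI. Without the count filter, 1 was higher in Fer-1+MI against MI. DESeq2 gave 2 higher in Fer-1+MI against MI and 2 in Lip-1+MI against Fer-1+MI. Whether replicate numbers pair the samples was not settled. Same-numbered samples had correlations of -0.024 to 0.088 of their deviations from group means, and 2 of 12 samples matched their own number best in every other group. Among the ligated groups alone, same-numbered samples had 0.006 to 0.088, all above 0. Different-numbered samples of these groups had -0.071 to 0.011. With the replicate block, 2 markers were higher in Fer-1+MI against MI and 2 in Lip-1+MI against Fer-1+MI, beside 0 without it. Leaving out 1 sample gave 4 to 6 higher and 1 lower in MI against Sham, 0 to 1 higher and 3 to 4 lower in Fer-1+MI against MI, and 0 higher and 1 to 2 lower in Lip-1+MI against MI. It gave 4 to 6 higher in Fer-1+MI against Sham, 5 to 8 higher in Lip-1+MI against Sham, and 0 to 1 higher in Lip-1+MI against Fer-1+MI.

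Signs that changed belonged to small differences. With library size only, MI against Sham had -0.11 for Pdgfrb, -0.08 for Fap and -0.09 for Ddr2. Fer-1+MI against Sham had -0.01 for Pdgfrb, -0.04 for Postn, -0.13 for Cthrc1, -0.06 for Pdgfc and -0.07 for Pdgfd. Lip-1+MI against Sham had -0.03 for Pdgfrb, -0.04 for Ddr2, and -0.01 for Crk, Ddr1, Dpp4 and Pdgfd. With limma on FPKM, over its 3 settings, MI against Sham had -0.10 for Pdgfrb, -0.07 to -0.06 for Fap and -0.09 to -0.08 for Ddr2. Fer-1+MI against Sham had 0.00 for Pdgfrb, -0.04 for Postn, -0.13 to -0.12 for Cthrc1, -0.12 to -0.06 for Pdgfc and -0.06 to -0.05 for Pdgfd. Lip-1+MI against Sham had 0.00 for Pdgfrb and Dpp4 and -0.01 for Ddr2. Lip-1+MI against Fer-1+MI had -0.01 to 0.00 for Pdgfrb and Dpp4 with both approaches.

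Leaving out 1 sample also turned signs, with these ranges. Fap had -0.01 to 0.15 in MI against Sham (lowest without MI replicate 2) and up to 0.08 in Lip-1+MI against Sham (without Lip-1+MI replicate 3). In Fer-1+MI against Sham, Postn had -0.02 to 0.17 (lowest without Fer-1+MI replicate 3), Cthrc1 -0.10 to 0.07 and Pdgfc -0.12 to 0.43. In Lip-1+MI against Fer-1+MI, Pdgfrb had -0.01 to 0.04, Tnc -0.01 to 0.07, Pdgfd -0.01 to 0.15 and Dpp4 -0.14 to 0.14. Ddr1 had -0.01 to 0.10 in Fer-1+MI against MI and up to 0.03 in Lip-1+MI against MI. The cause was not tested. Thy1 and Fap had the fewest counts of the markers.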
